A study of Rattus norvegicus with 4 samples.

Results

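The Hox genes were followed by single-cell RNA sequencing in rat lumbar dorsal root ganglia (DRG), where the cell bodies of sensory nerves lie beside the spinal cord. Members were chosen by symbol and by their own UMI totals: they were the rows whose symbol is Hox, a letter from a to d and a number, with 20 or more unique molecular identifiers (UMIs, each the mark of 1 captured transcript) summed over 4 count matrices. Of 25629 features, 36 had such a symbol and 28 reached 20 UMIs, with 7 members in each of the clusters HoxA, HoxB, HoxC and HoxD. Just inside the limit stood Hoxd11, with 7 and 6 UMIs in the CPIP and 5 and 2 in the Sham libraries, and just outside it Hoxb8, with 3 and 3 in CPIP against 1 and 0 in Sham. Of the other rows left out, Hoxa13 had 2 UMIs, Hoxd13 had 1, and Hoxb1, Hoxb13, Hoxc12, Hoxc13 and Hoxd12 were listed at 0 in every library. Hoxa5, Hoxa6 and Hoxa10 were not analysed here.

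The libraries came from male Sprague-Dawley rats, 2 from animals of the CPIP model and 2 from Sham animals. The labels do not spell out CPIP, which in the field stands for chronic post-ischaemia pain, a hind-paw injury model of complex regional pain syndrome. Each library pooled the ipsilateral lumbar ganglia of 3 rats, numbered L4-L6 in the labels, dissociated with enzymes and captured on barcoded beads in microwells. With 2 libraries a group and no animal traceable within a pool, every p-value sets the difference between groups against the spread between pools. That spread is estimated in part from other features.

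Hox proteins are transcription factors that give cells along the body axis their regional identity. Within each of the 4 genomic clusters the genes lie in the order in which they are used from head to tail, and genes at the same place in different clusters form paralogue groups, numbered upwards towards the tail end. Sensory neurons, satellite glia and Schwann cells of the ganglion arise from the neural crest, and fibroblasts, endothelial cells and mural cells of the trunk from mesoderm, and all keep part of the Hox code of the level at which they formed.

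Depth was alike between the libraries. The matrices held 60885664 to 64550637 UMIs each, 44346 cells passed the filters, and 19 of 49168 barcodes occurred in more than 1 library. Cells were clustered with the Hox rows left out and named by marker genes, so a class name means likeness to that class. The classes were neurons (10530 cells), satellite glia (13082), non-myelinating Schwann cells (1708), myelinating Schwann cells (1659), fibroblasts (894), endothelial cells (3038), smooth muscle cells (951, which also held pericyte markers), macrophages (951, which also held neutrophil markers) and a cluster led by Cdh19 and Scn7a (4681) between satellite glia and Schwann cells that stayed unnamed. A further 6537 neuron-like cells with few UMIs were kept apart and are not among the classes compared. Fibroblasts were few and uneven, with 195 and 474 cells in the CPIP and 158 and 67 in the Sham libraries. Levels below are in CPM, the UMIs of a gene per 1000000 UMIs of the class in a library. UMIs are not scaled by transcript length, so a gene is compared between classes and libraries, and not with another gene. Since classes are clusters of the same cells, differences between classes are described without a test, by whether their 4 libraries overlap. A lower CPM in a class cannot be told apart from more RNA of other genes in it.

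Macrophages, blood-derived cells that should lack an axial Hox code, gave the background. All 28 members together reached 43.4 and 50.9 CPM in the CPIP and 50.5 and 19.999 CPM in the Sham macrophages. With doublets kept the macrophage sum was 88.4 and 119 CPM in CPIP and 125 and 102 CPM in Sham. The same sum was 363 and 403 CPM in CPIP neurons and 382 and 361 CPM in Sham neurons. It was 382 and 383 CPM in CPIP satellite glia and 352 and 448 CPM in Sham satellite glia. Endothelial cells, at 755 and 729 CPM in the CPIP and 754 and 771 CPM in the Sham libraries, and smooth muscle cells, at 1006 and 967 in CPIP against 701 and 838 CPM in Sham, stood above every neural crest class in this sum. The range over libraries of 22 members lay above that of macrophages in neurons, of 18 in satellite glia and of 23 in endothelial cells. One satellite glia member lay below it.

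**Figure D1:**
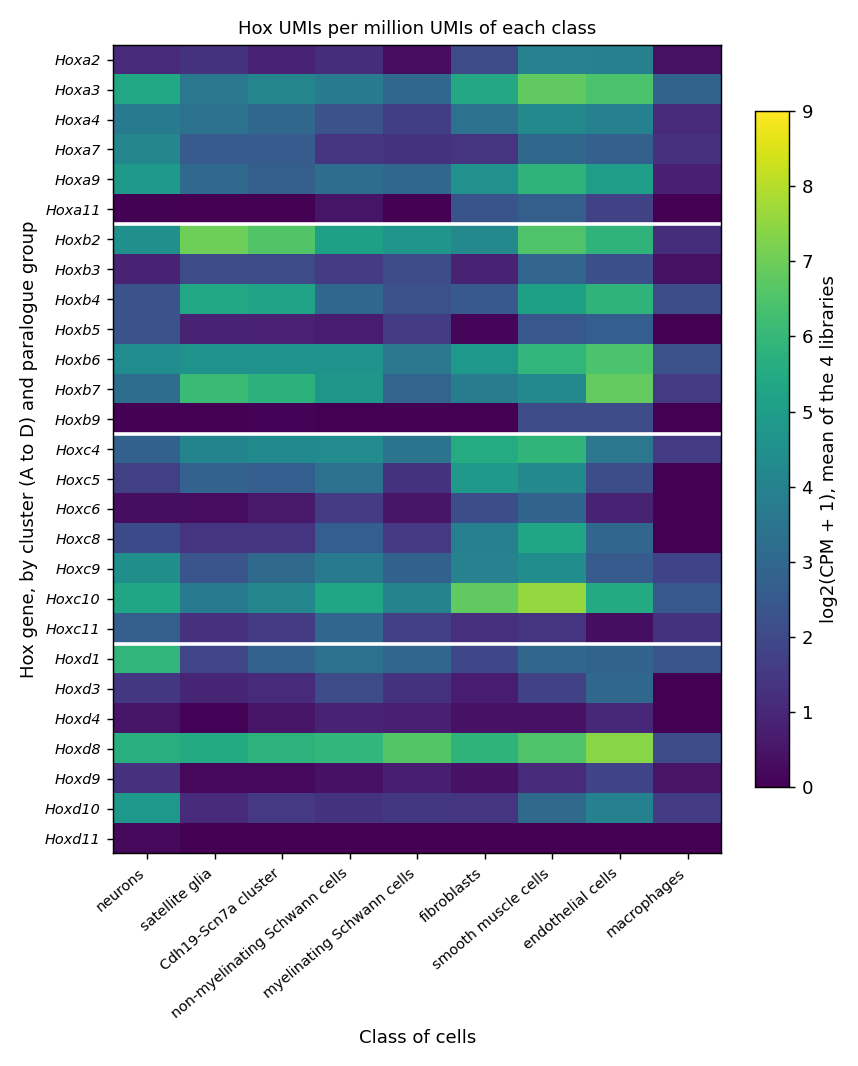
Mean level of 27 of the 28 Hox genes in 9 classes of cells, as log2(CPM + 1) over the 4 libraries (colour), with rows ordered by cluster and paralogue group and white lines between clusters. Satellite glia are bright in Hoxb2, Hoxb4 and Hoxb7, neurons in Hoxd1, smooth muscle cells and fibroblasts in Hoxc10, endothelial cells in Hoxd8 and Hoxb7, and macrophages are dark throughout.

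Neurons used members from the head end and the tail end of the code at once. Hoxd1, a paralogue group 1 gene that in mouse shapes the wiring of pain-sensing neurons, had 53.9 and 76.5 CPM in CPIP neurons and 64.5 and 44.1 CPM in Sham neurons. Non-myelinating Schwann cells, the next class, averaged 9.24 CPM over the 4 libraries, and the Hoxd1 range in neurons lay above that of every other class. Hoxd10, which in mouse helps to specify lumbar motor neurons, had 31.8 and 20.03 CPM in CPIP neurons against 33.5 and 22.8 CPM in Sham neurons, again apart from all other classes. Hoxa7, a gene of the trunk part of the code, was the third member of this kind above the level of 1 CPM, with 12.0 and 23.4 in CPIP against 18.2 and 13.6 CPM in Sham. Hoxd11, with a mean of 0.14 CPM in neurons, had no UMI in the 8 other classes and is too rare to place.

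The other neuronal members were shared with further classes. Hoxd8, which patterns the trunk, had 50.2 and 53.2 CPM in CPIP neurons against 51.7 and 48.2 CPM in Sham neurons. Hoxa3, known in mouse for its part in neck and throat organs, had 44.3 and 40.2 in CPIP against 40.9 and 38.5 CPM in Sham. Hoxc10, the HoxC partner of Hoxd10 at lumbar levels in mouse, had 41.5 and 36.6 in CPIP against 38.3 and 39.2 CPM in Sham, and these 3 genes varied by a few CPM at most between libraries. The thoracic to lumbar gene Hoxa9 had 28.6 and 27.2 in CPIP against 27.5 and 27.0 CPM in Sham. Hoxc9, which in mouse marks thoracic motor neurons, had 19.8 and 21.4 in CPIP against 21.5 and 22.3 CPM in Sham. Hoxa4 had 11.9 and 12.1 in CPIP against 13.2 and 11.2 CPM in Sham, and Hoxc4 had 5.35 and 6.56 in CPIP against 5.13 and 6.40 CPM in Sham. The HoxB genes were low in neurons as a whole: Hoxb2, a hindbrain segment gene in mouse, had 19.6 and 23.8 in CPIP against 17.9 and 26.4 CPM in Sham. Hoxb6 had 13.9 and 25.1 in CPIP against 16.2 and 24.5 CPM in Sham, and Hoxb7 had 7.60 and 10.9 in CPIP against 6.78 and 9.14 CPM in Sham. In each of the 3 HoxB genes both libraries numbered 2 lay above both numbered 1. Hoxc11, of the most tail-ward group with more than traces here, had 3.92 and 4.18 CPM in CPIP neurons and 7.39 and 6.83 CPM in Sham neurons, with no overlap.

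Promoters of the 3 genes that set neurons apart (Hoxd1, Hoxd10 and Hoxa7) are shown for context, from 250 bases before to 50 after the RefSeq start on GRCr8, 5′ to 3′ along the gene. Capitals mark matches on either strand to TGATNNAT, the joint site of Hox and Pbx proteins, or TTTATNG, the site of caudal and tail-ward Hox proteins.
Hoxd1 (chr3:80072791-80073090, + strand): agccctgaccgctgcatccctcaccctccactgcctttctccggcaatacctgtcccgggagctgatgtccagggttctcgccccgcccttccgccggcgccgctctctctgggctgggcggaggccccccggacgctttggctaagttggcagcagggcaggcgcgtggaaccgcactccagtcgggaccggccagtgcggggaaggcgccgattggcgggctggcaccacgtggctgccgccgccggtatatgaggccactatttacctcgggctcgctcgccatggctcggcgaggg
Hoxd10 (chr3:80001697-80001996, + strand): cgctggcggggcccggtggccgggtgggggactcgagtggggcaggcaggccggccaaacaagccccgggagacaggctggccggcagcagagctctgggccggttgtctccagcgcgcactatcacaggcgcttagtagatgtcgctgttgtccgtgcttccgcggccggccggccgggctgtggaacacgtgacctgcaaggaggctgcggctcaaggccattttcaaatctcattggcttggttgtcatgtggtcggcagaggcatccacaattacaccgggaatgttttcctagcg
Hoxa7 (chr4:82648192-82648491, - strand): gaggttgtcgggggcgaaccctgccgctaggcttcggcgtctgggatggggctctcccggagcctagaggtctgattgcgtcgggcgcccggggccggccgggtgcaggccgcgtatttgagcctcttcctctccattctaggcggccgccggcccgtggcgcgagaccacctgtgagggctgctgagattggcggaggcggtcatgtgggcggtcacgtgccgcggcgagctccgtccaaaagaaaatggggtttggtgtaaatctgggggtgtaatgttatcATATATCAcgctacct
RefSeq promoters were found for 14 of the 28 members. They were rich in CpG, with a median of 22.5 CG steps in 300 bases (6 to 49) and 62.5% G and C, against 7 and 52.3% over 27457 rat promoters. TGATNNAT occurred in 3 of the 14, Hoxa2, Hoxa7 and Hoxd11, which is 21.4% against 8.82% of all promoters, and TTTATNG in Hoxa9 alone, which is 7.14% against 11.2%. Hoxd1 and Hoxd10 held neither run of letters in this window.

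Satellite glia, which wrap the neuronal cell bodies, carried a Hox code made mostly of HoxB genes. Hoxb2 had 115 and 140 CPM in CPIP glia and 112 and 146 CPM in Sham glia, above the mean of every other class and above the range of neurons. Hoxb7 had 70.3 and 61.3 in CPIP against 56.2 and 87.5 CPM in Sham, and Hoxb4 had 36.5 and 44.4 in CPIP against 34.2 and 47.8 CPM in Sham. Hoxb6 had 20.7 and 24.2 in CPIP against 19.0 and 31.5 CPM in Sham. The HoxB share of all Hox UMIs was 64.4% and 71.7% in CPIP glia and 64.0% and 70.9% in Sham glia, against 13.4% and 17.4% in CPIP neurons and 12.7% and 19.1% in Sham neurons. Of the 28 members, 16 were higher in neurons than in satellite glia with no overlap of libraries, 7 were higher in satellite glia and 5 overlapped.

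Outside HoxB, Hoxd8 had 50.9 and 33.8 CPM in CPIP against 47.4 and 43.8 CPM in Sham satellite glia. Hoxc4 (13.9 to 18.5 CPM over the libraries), Hoxc10 (9.54 to 15.9), Hoxa3 (8.87 to 13.3), Hoxa4 (8.24 to 10.7), Hoxa9 (6.09 to 8.90), Hoxc5 (5.40 to 8.10) and Hoxa7 (3.47 to 7.52) made up the rest above 5 CPM on average. The Hox code of the unnamed cluster led by Cdh19 and Scn7a was nearly that of satellite glia, with 26 of 28 members overlapping, and Hoxb2 averaged 92.4 CPM in it.

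The share of cells with a UMI showed the same split. Hoxb2 was detected in 43.3% of satellite glia, 13.3% of neurons and 0.315% of macrophages, at median depths of 5756.5, 5878.5 and 2059 UMIs. With each cell thinned to 1000 UMIs the Hoxb2 shares were 11.05%, 1.80% and 0.119%. Hoxd1 was detected in 22.6% of neurons, 1.65% of satellite glia and 0.841% of macrophages, and after thinning in 5.18%, 0.281% and 0.358%. Hoxd1 in satellite glia was thus above the macrophage share before thinning and not after it, where the macrophage share rests on few cells. Thinning left out 492 neurons, 275 satellite glia and 112 macrophages. At these depths a median neuron held UMIs of 2 Hox genes, and between 20.1% and 23.3% of the neurons of a library held none.

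Both Schwann classes, the glia of the nerve fibres, had more Hoxd8 and less Hoxb2 than satellite glia, with no overlap of libraries. Hoxd8 had 104 and 70.5 CPM in CPIP and 97.4 and 108 CPM in Sham myelinating Schwann cells, where Hoxb2 had 26.1 and 27.6 in CPIP against 17.3 and 28.6 CPM in Sham. In non-myelinating Schwann cells Hoxd8 had 58.5 and 51.6 in CPIP against 68.3 and 68.3 CPM in Sham, Hoxc10 had 56.0 and 38.3 in CPIP against 27.3 and 35.4 CPM in Sham, and Hoxb2 had 20.4 and 33.9 in CPIP against 27.3 and 51.8 CPM in Sham. In non-myelinating cells the 11 further members above 5 CPM were Hoxb7 (15.4 to 42.4 CPM), Hoxb6 (16.5 to 33.0), Hoxc4 (14.1 to 22.2), Hoxc9 (8.53 to 14.7), Hoxa3 (4.42 to 18.9), Hoxc5 (7.63 to 11.8), Hoxd1 (7.07 to 11.9), Hoxa9 (5.12 to 11.8), Hoxb4 (4.71 to 10.2), Hoxc11 (5.09 to 9.43) and Hoxc8 (1.71 to 10.3). In myelinating cells the 8 others were Hoxc10 (8.16 to 24.0 CPM), Hoxb6 (9.004 to 14.3), Hoxc4 (8.003 to 12.2), Hoxa3 (4.001 to 9.90), Hoxa9 (3.06 to 10.2), Hoxd1 (5.11 to 10.7), Hoxb7 (5.40 to 8.16) and Hoxc9 (0 to 9.19). These classes had 490036 to 1110600 UMIs a library in myelinating cells and 424347 to 786290 in non-myelinating cells, so low values there rest on few counts.

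Fibroblasts and smooth muscle cells had more Hoxc10 than the other 7 classes, with no overlap of libraries. Fibroblasts had 118 and 65.5 CPM of Hoxc10 in the CPIP and 84.5 and 176 CPM in the Sham libraries, and smooth muscle cells had 196 and 240 in CPIP against 143 and 189 CPM in Sham. Hoxc4 and Hoxc5, neighbours in the HoxC cluster, stood higher in fibroblasts than in neurons, with 51.6 and 57.0 CPM in CPIP fibroblasts and 37.2 and 34.4 CPM in Sham fibroblasts for Hoxc4, and 21.6 and 23.8 CPM in CPIP fibroblasts and 24.4 and 43.0 CPM in Sham fibroblasts for Hoxc5. In smooth muscle cells Hoxa9, with 81.6 and 63.7 in CPIP against 43.1 and 40.8 CPM in Sham, and Hoxc8, with 45.7 and 55.0 in CPIP against 20.8 and 35.2 CPM in Sham, lay above all other classes. Further fibroblast members above 5 CPM were Hoxd8 (34.4 to 72.0 CPM), Hoxa3 (28.0 to 64.5), Hoxb6 (18.1 to 38.7), Hoxa9 (15.6 to 38.7), Hoxb2 (8.40 to 27.2), Hoxc9 (10.8 to 21.5), Hoxc8 (8.07 to 18.6), Hoxb7 (7.16 to 17.2) and Hoxa4 (7.60 to 12.9). In RefSeq the rat Hoxc6 gene overlaps Hoxc4 and Hoxc5, Hoxa3 overlaps Hoxa4, Hoxa5 and Hoxa6, Hoxb5 and Hoxb6 overlap Hoxb5os, and Hoxc11 overlaps a gene without a name, so UMIs of these genes may have been assigned to a neighbour.

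In endothelial cells 4 members of HoxB and HoxD lay above their level elsewhere. Hoxd8 had 178 and 164 CPM in CPIP and 169 and 165 CPM in Sham endothelial cells, Hoxb7 had 113 and 117 in CPIP against 109 and 117 CPM in Sham, and Hoxb6 had 77.5 and 82.0 in CPIP against 91.0 and 91.7 CPM in Sham. Hoxb4, best known for its use in blood stem cells, had 54.0 and 61.2 in CPIP against 53.2 and 57.5 CPM in Sham, and the ranges of these 4 genes lay above those of every other class. Hoxa3 (73.2 to 100 CPM), Hoxb2 (49.3 to 62.1), Hoxc10 (35.0 to 52.5) and Hoxa9 (29.3 to 33.3) were also present, and Hoxa4, Hoxd10, Hoxa2, Hoxc4, Hoxd3, Hoxc8, Hoxd1, Hoxa7, Hoxb5 and Hoxc9 averaged between 5.05 and 14.6 CPM. Hoxc11 was all but missing there, with UMIs in 3 of 3038 cells and a mean of 0.27 CPM. Among rare members, Hoxa11 had its highest means in smooth muscle cells (5.58 CPM) and fibroblasts (4.06 CPM), and Hoxb9 had 3.19 CPM in endothelial and 3.12 CPM in smooth muscle cells. Hoxb3, Hoxc6, Hoxd4 and Hoxd9 averaged less than 7 CPM in each of these 9 classes.

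Within the neurons the code differed sharply between sub-clusters, which are called here by their leading gene. HoxB genes together had 113.8 and 127.95 CPM in CPIP and 116.5 and 140.2 CPM in Sham neurons led by Adcyap1, a peptidergic sub-cluster. In the non-peptidergic neurons led by Iapp they had 4.52 and 2.93 in CPIP against 4.88 and 4.92 CPM in Sham, in neurons led by Mrgprb4 7.10 and 10.55 in CPIP against 4.44 and 8.70 CPM in Sham, and in Sst-led neurons, which carry itch markers, 8.19 and 15.4 in CPIP against 9.54 and 13.1 CPM in Sham. The HoxB ranges of these 3 sub-clusters lay below those of the Adcyap1-led, Nmu-led, Ntng1-led, Pvalb-led and Scgn-led neurons. Hoxa3 and Hoxd8 did not share this split, with 55.0 and 46.8 CPM on average in Iapp-led against 26.0 and 61.6 CPM in Adcyap1-led neurons.

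Levels of single members also differed between sub-clusters. Hoxd1 averaged 451 CPM in Ntng1-led neurons, 250 CPM in S100a16-led and 101 CPM in Kcnv1-led neurons, but 7.42 CPM in Mrgprb4-led and 8.84 CPM in Scgn-led neurons, which carry the cold sensor Trpm8. Hoxb5 reached 23.9 CPM in Nmu-led neurons, which carry markers of low-threshold C fibres, and at most 7.8 CPM in any other sub-cluster. Hoxd10 averaged 72.7 CPM in Scgn-led, 65.3 CPM in Pvalb-led and 43.4 CPM in Iapp-led neurons against 0.57 CPM in Sst-led neurons. Hoxc11 averaged 74.8 CPM in Pvalb-led neurons, large neurons with neurofilament markers that include muscle and touch afferents, and 22.5 CPM in Scgn-led neurons, but 0.24 CPM or less in Iapp-led, Tuba1c-led, Mrgprb4-led and Sst-led neurons. A Hoxc11 UMI was found in 0.21% of macrophages.

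**Figure D2:**
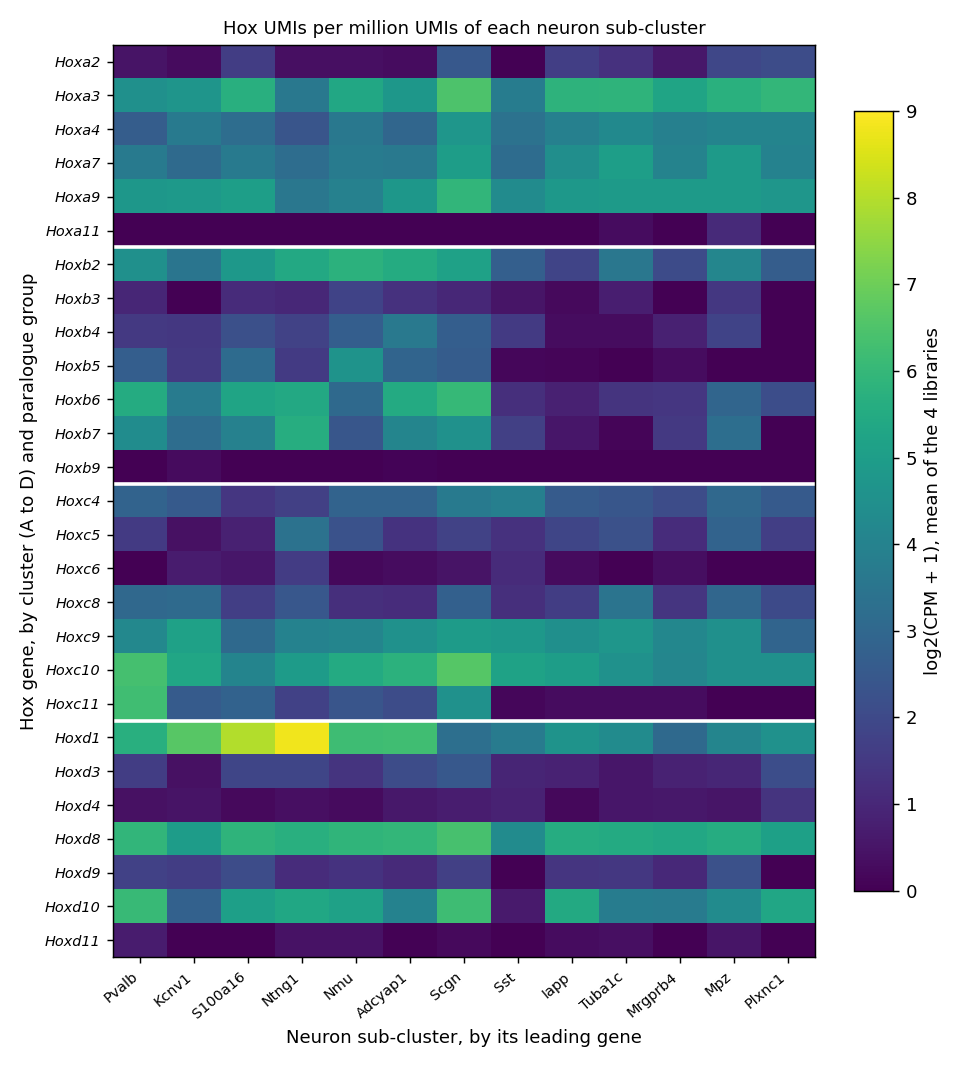
Mean level of 27 of the 28 Hox genes in 13 neuron sub-clusters, named on the x axis by their leading gene, as log2(CPM + 1) over the 4 libraries. HoxB rows are dark in Iapp-led, Tuba1c-led, Mrgprb4-led and Sst-led neurons, Hoxd1 is brightest in Ntng1-led neurons (451 CPM) and Hoxc11 in Pvalb-led neurons (74.8 CPM).

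The axial level of the libraries was compared through the share of Hox UMIs on paralogue groups 10 to 13, as a check on which ganglia were taken. In neurons this share was 21.3% and 15.2% in the CPIP and 20.7% and 19.1% in the Sham libraries, with CPIP 2 lowest. The exact 95% intervals, which cover counting error only, were 14.4% to 15.9% in CPIP 2 and 18.3% to 19.9% in Sham 2. In satellite glia the share was 5.02% and 2.83% in CPIP against 4.51% and 2.99% in Sham, and in fibroblasts 29.6% and 20.1% in CPIP against 23.5% and 33.9% in Sham. In myelinating Schwann cells it was 9.65% and 7.07% in CPIP against 14.6% and 4.59% in Sham, in smooth muscle cells 21.4% and 26.3% in CPIP against 22.7% and 23.7% in Sham, and over all cells 12.97% and 9.40% in CPIP against 13.7% and 10.5% in Sham. The groups overlapped in each of these. In neurons, satellite glia, myelinating Schwann cells and over all cells, both libraries numbered 2 lay below both numbered 1. In smooth muscle cells both lay above, and fibroblasts did not split by number.

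The groups did not overlap in 4 further sets of cells, and not in one direction. Non-myelinating Schwann cells had 21.6% and 17.4% in the CPIP against 13.6% and 13.3% in the Sham libraries, and endothelial cells had 7.43% and 7.44% in CPIP against 9.47% and 8.44% in Sham. Macrophages had 14.8% and 9.76% in CPIP against 35.0% and 16.7% in Sham, on 27 and 41 Hox UMIs in CPIP and 20 and 6 in Sham. The neuron-like cells with few UMIs had 10.5% and 8.62% in CPIP against 12.1% and 11.9% in Sham. None of these 4 sets split by library number. With a stricter cell filter the CPIP minus Sham difference was 0.163 percentage points in place of 6.02 in non-myelinating Schwann cells, and 1.04 in place of -1.52 in endothelial cells. The UMI-weighted mean paralogue group was 6.12 and 5.68 in CPIP neurons against 6.07 and 6.15 in Sham neurons, and 5.04 and 4.58 in CPIP satellite glia against 4.91 and 4.80 in Sham satellite glia. CPIP 2 was lowest in both, by less than a whole group. Without Hoxd1, the member with most UMIs in neurons, the neuron values were 7.02 and 6.78 in CPIP against 7.10 and 6.86 in Sham. Without Hoxb2, the satellite glia values were 6.34 and 6.07 in CPIP against 6.26 and 6.16 in Sham. With these members left out, both libraries numbered 2 lay below both numbered 1 in neurons and in satellite glia. Hoxd1 was highest in Ntng1-led neurons, with 81 and 114 cells in CPIP and 124 and 41 in Sham. S100a16-led neurons, the next, had 192 and 214 in CPIP and 165 and 116 in Sham. The part of this mix in the neuron score was not tested. No test was made of these scores, since they sum over members chosen with results of these data known.

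HoxB genes split by library number as well, and not by group. The HoxB share of Hox UMIs was higher in both libraries numbered 2 than in both numbered 1 in neurons and satellite glia, as given above. The same held in non-myelinating Schwann cells, at 26.9% and 32.6% in CPIP against 26.0% and 39.9% in Sham, in myelinating Schwann cells, at 20.5% and 31.0% in CPIP against 18.5% and 27.5% in Sham, and in endothelial cells, at 41.6% and 44.7% in CPIP against 42.0% and 44.3% in Sham. Fibroblasts did not show it, at 12.3% and 16.2% in CPIP against 15.7% and 15.3% in Sham. By gene, 11 of the 24 tested members in neurons split by number with no overlap, against 32.4% of 13639 features. Of the 24, 7 were higher in both libraries numbered 2, against 16.1% of features, and they were Hoxb2, Hoxb3, Hoxb4, Hoxb6, Hoxb7, Hoxc4 and Hoxc5. The others that split, Hoxa3, Hoxa9, Hoxd4 and Hoxd10, were higher in both libraries numbered 1, against 16.3% of features. In satellite glia 9 of 21 split by number, against 31.9% of features. There 5 were higher in the libraries numbered 2, against 15.5%, and they were Hoxa9, Hoxb2, Hoxb4, Hoxb5 and Hoxb6. Hoxc10, Hoxc11, Hoxd8 and Hoxd10 were higher in those numbered 1, against 16.4%. In endothelial cells 9 of 20 split, against 31.4%, with 6 higher in those numbered 2, Hoxd10 among them, against 15.9%. Hoxc10, Hoxd3 and Hoxd8 were higher there in those numbered 1, against 15.5%. The labels give no date or batch for the numbers, and what they stand for was not tested.

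**Figure D3:**
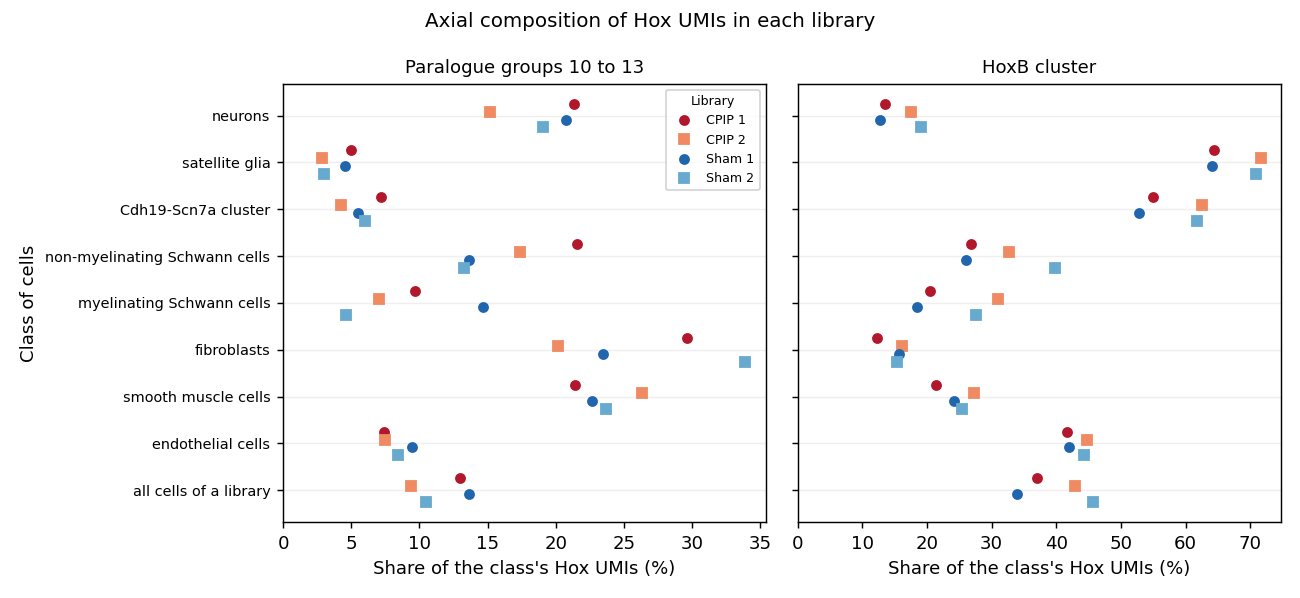
Share of each class's Hox UMIs (%) on paralogue groups 10 to 13 (left panel) and on the HoxB cluster (right panel), 1 point per library, shades of red for CPIP and of blue for Sham, circles for replicate 1 and squares for replicate 2. On the left CPIP 2 lies lowest in neurons (15.2%), and both squares lie left of both circles there. On the right squares lie right of circles in most classes.

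Between CPIP and Sham no Hox member passed the test in any class as a whole. In neurons 0 of 24 tested members had an adjusted p under 0.05 (edgeR quasi-likelihood test), as had 0% of 13639 features, and 1 member had an unadjusted p under 0.05, against 3.85% of features. By DESeq2's Wald test 0 Hox members were called in neurons, among 8 of 13639 features. The CPIP and Sham ranges failed to overlap in 5 of the 24, below the 32.3% of features. The 3 members with the smallest p in neurons were Hoxc11 (log2 fold change -0.80, SE 0.16, p 0.0031, edgeR adjusted p 0.965), Hoxc8 (-0.34, adjusted p 0.965) and Hoxa2 (-0.44, adjusted p 0.965), all lower in both CPIP libraries. The median log2 fold change was 0.05 over the tested members and 0.01 over all features. Without CPIP replicate 1, Hoxc11 in neurons passed among 797 features and Hoxd8 in the Cdh19-Scn7a cluster among 494, in fits that assume the lone CPIP library varies like the Sham libraries.

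In the other classes the counts of called members were 0 of 21 in satellite glia, 0 of 6 in non-myelinating and 0 of 3 in myelinating Schwann cells, 0 of 11 in fibroblasts, 0 of 20 in endothelial cells and 0 of 10 in smooth muscle cells. Over all features the same edgeR test called 0% in each of these but endothelial cells, at 0.01%. No member was abundant enough to test in macrophages. The CPIP and Sham ranges failed to overlap in 5 of 11 members in fibroblasts (1 higher in CPIP), against 29.8% of features (15.1% higher in CPIP), and in 3 of 20 in endothelial cells, against 33.2%. In smooth muscle cells 5 of 10 did not overlap, all higher in CPIP (Hoxa9, Hoxb2, Hoxc8, Hoxc9 and Hoxc10), against 35.5% of features in either direction and 18.5% higher in CPIP. The median log2 fold change there was 0.33 over the tested members and 0.00 over all features. Pericyte markers in this class summed to 2387 and 2242 CPM in CPIP against 1097 and 1792 CPM in Sham, with no overlap. Its smooth muscle markers overlapped, at 12720 and 14891 CPM in CPIP against 14261 and 15700 CPM in Sham. Endothelial markers overlapped too, at 849 and 883 CPM in CPIP against 1419 and 840 CPM in Sham. Erythroid markers varied most between libraries, at 16.3 and 8897 CPM in CPIP against 4070 and 1.85 CPM in Sham. The part of this mix of cells in the Hox differences was not tested. An unadjusted p under 0.05 was found for 0 of 21 members in satellite glia, against 3.21% of features, for 0 of 20 in endothelial cells, against 4.54% of features, and for 0 of 3 in myelinating Schwann cells, against 4.68%. Smooth muscle cells held 2 of 10, against 6.41%, for Hoxb2 (log2 0.70, SE 0.27, edgeR adjusted p 0.758) and Hoxa9 (log2 0.72, SE 0.32, edgeR adjusted p 0.758), followed by Hoxc8 (log2 0.82, edgeR adjusted p 0.758). In fibroblasts the smallest p belonged to Hoxb2 (log2 -1.06), Hoxc4 (log2 0.59) and Hoxa9 (log2 -0.74), each with an edgeR adjusted p of 1.00. In satellite glia Hoxa4 (log2 -0.21), Hoxc5 (log2 -0.27) and Hoxb5 (log2 0.38) had edgeR adjusted p of 0.981, 0.981 and 0.982. In endothelial cells Hoxc5 (log2 -0.84), Hoxb6 (log2 -0.17) and Hoxc10 (log2 -0.25) had an edgeR adjusted p of 0.971. Hoxc10 (log2 0.63, edgeR adjusted p 0.870), Hoxb2 (log2 -0.50) and Hoxd8 (log2 -0.29) led in non-myelinating Schwann cells, and the 3 members tested in myelinating Schwann cells were Hoxd8 (log2 -0.25), Hoxb2 (log2 0.25) and Hoxc10 (log2 -0.31), with an edgeR adjusted p of 0.993.

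Pvalb-led neurons were the one sub-cluster with Hox members past the test, a comparison added after their values had been seen. Hoxc11 had 34.5 and 40.1 CPM in CPIP and 117.1 and 107.4 CPM in Sham Pvalb-led neurons, on 23, 41, 128 and 83 UMIs in CPIP 1, CPIP 2, Sham 1 and Sham 2. It fell by 1.55 on the log2 scale (SE 0.24, edgeR adjusted p 0.0081). A Hoxc11 UMI was found in 9.33% and 9.91% of CPIP Pvalb-led cells and in 25.3% and 20.4% of Sham Pvalb-led cells. These shares are not scaled for depth, which had medians of 1476 and 2592.5 UMIs in CPIP and 2399 and 1616 in Sham. Hoxd1 fell by 2.03 (SE 0.38, edgeR adjusted p 0.026), with 16.9 and 21.3 CPM in CPIP and 52.8 and 110 CPM in Sham libraries on the TMM scale. Hoxd10, with 21.6 and 49.8 in CPIP against 88.6 and 106 CPM in Sham on that scale, did not pass (log2 -1.37, edgeR adjusted p 0.053), and Hoxc10, the neighbour of Hoxc11, had 92.4 and 90.5 in CPIP against 82.9 and 64.9 CPM in Sham (log2 0.29, edgeR adjusted p 0.699).

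These 2 of 12 tested members stood beside 84 of 7453 features called in the sub-cluster, or 1.13%. Markers of its cells differed as well. Pvalb, a calcium buffer of muscle afferents, had 1421 and 1454 CPM in CPIP and 382 and 449 CPM in Sham libraries (log2 1.82, edgeR adjusted p 5.2e-05). Spp1, a marker of the same afferents, also rose (log2 1.46, edgeR adjusted p 0.0028), and Ntrk2, a receptor of some touch afferents, fell by 0.86 (edgeR adjusted p 0.033). The other 3 markers tested did not pass: Runx3 (log2 0.89, edgeR adjusted p 0.141), Ntrk3 (log2 0.42, edgeR adjusted p 0.703) and Nefh (log2 0.41, edgeR adjusted p 0.333). Cells with a Pvalb UMI made up 43.5% and 49.5% of the CPIP but 17.4% and 23.8% of the Sham sub-cluster. More such cells and more Pvalb RNA per cell cannot be told apart. Cells with a Pvalb UMI were also deeper in every library, with medians of 3232 and 4143 UMIs in CPIP and 5809 and 2315 in Sham. Those without one had 863 and 1348 in CPIP and 2190 and 1308.5 in Sham. The 8 neurofilament markers summed to 4178 and 4058 in CPIP against 2340 and 1943 CPM in Sham, with none at 0, and without Pvalb and Spp1 to 1548 and 1598 in CPIP against 1477 and 1161 CPM in Sham. The 11 satellite glia markers summed to 2694 and 2746 in CPIP against 2382 and 2946 CPM in Sham.

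Neurons outside the sub-cluster had 3.07 and 2.49 CPM of Hoxc11 in CPIP and 2.67 and 3.65 CPM in Sham libraries, which overlap. With 1 library left out, in fits that assume the lone library of its group varies like the other group, Hoxc11 passed each time, and Hoxd1 did not pass without CPIP replicate 1 or CPIP replicate 2. Hoxd1 did not pass by DESeq2's Wald test either. With the replicate numbers crossed between the groups as a block, 0 of 12 members passed (Hoxc11 edgeR adjusted p 0.277). In Pvalb-led cells with a Pvalb UMI, Hoxc11 had 38.5 and 0 CPM in CPIP against 85.4 and 19.8 CPM in Sham, which overlap. Pvalb-led cells without one had 28.0 and 104 CPM in CPIP against 129 and 139 CPM in Sham. These rest on 7 and 41 Hoxc11 UMIs in CPIP and 103 and 79 in Sham. Hoxd1 overlapped in cells with a Pvalb UMI and not in those without one. When all cells were clustered anew under the strict cell filter, neurons led by Crtac1 and Hoxc11 (202 cells) stood apart from neurons led by Pvalb (169 cells). How these map onto the Pvalb-led sub-cluster was not tested. The part of any change in the mix of cells in the Hoxc11 and Hoxd1 differences was not tested.

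**Figure D4:**
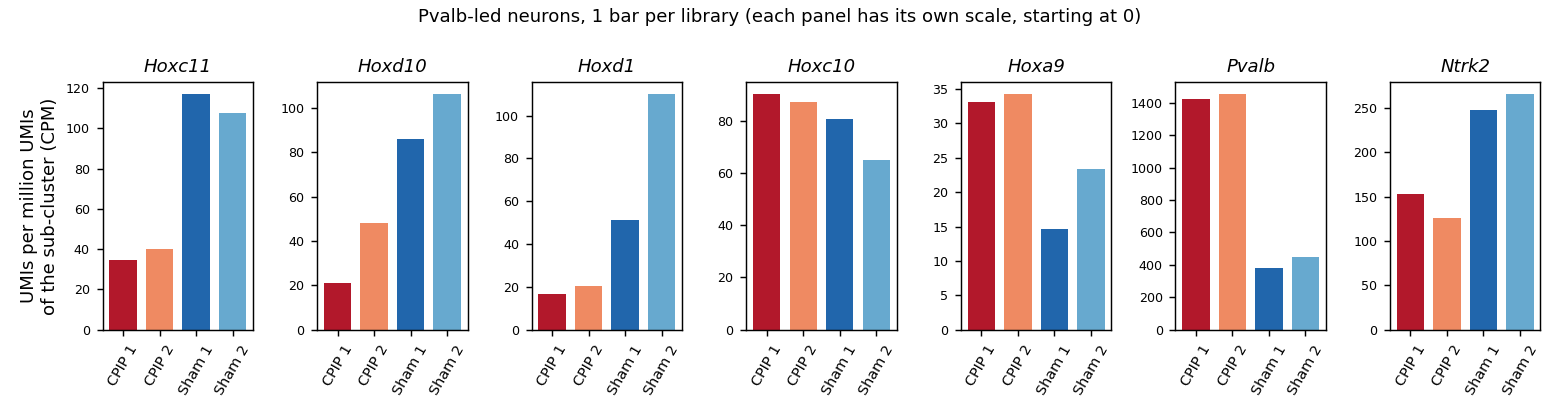
Level of 5 Hox genes and of Pvalb and Ntrk2 in Pvalb-led neurons, in CPM of the sub-cluster, 1 bar per library with CPIP in shades of red and Sham in shades of blue, each panel on its own scale. Hoxc11, Hoxd10, Hoxd1 and Ntrk2 are lower and Hoxc10, Hoxa9 and Pvalb higher in both CPIP libraries; Hoxd10, Hoxc10 and Hoxa9 did not pass the test.

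In the other 11 sub-clusters tested, 0 of 6 to 17 members each had an edgeR adjusted p under 0.05. Unadjusted p values under 0.05 were found there for Hoxd1 (log2 0.45, edgeR adjusted p 0.845) and Hoxd10 (log2 -0.49, edgeR adjusted p 0.845) in Adcyap1-led neurons and for Hoxb6 (log2 -1.02, edgeR adjusted p 0.836) in Nmu-led neurons. These were 2 of 17 members against 5.42% of features in Adcyap1-led neurons and 1 of 13 against 5.71% in Nmu-led neurons. Over all features the edgeR test called between 0% and 0.0238% in those sub-clusters. Hoxd1 thus had opposite signs in Pvalb-led and Adcyap1-led neurons, a difference that was not tested.

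Partners and regulators of Hox proteins were present in the same classes, and 0 of their tested members passed the edgeR test between the groups in neurons (9 cofactors, 26 Polycomb and Trithorax genes, 5 genes upstream of Hox, 4 limb and body-wall genes and 1 gene of cranial origin). Pknox2, a DNA-binding partner, had 41.2 and 36.3 CPM in CPIP neurons against 45.8 and 40.9 CPM in Sham neurons. Pbx3, a further partner, averaged 24.3, 66.7 and 40.6 CPM in neurons, satellite glia and fibroblasts. Of the chromatin genes that keep Hox clusters silent or active, Rbbp7 averaged 146, 185 and 150 CPM in those classes. Ezh1 had 95.5 CPM and Cbx6 121 CPM in neurons, Ash1l 161 CPM in satellite glia, and Ash1l 107 CPM and Cbx6 59.1 CPM in fibroblasts.

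Genes that act before Hox genes, and other position genes, differed between the classes as well. Cyp26b1, which breaks down retinoic acid, had 92.4 and 153 CPM in CPIP and 148 and 232 CPM in Sham fibroblasts and averaged 3.5 CPM in neurons. Gdf11, which in mouse sets the onset of the tail-ward code, averaged 72.8 CPM in fibroblasts, 89.0 CPM in satellite glia and 20.4 CPM in neurons, and the retinoic acid receptor Rarb 17.3, 23.3 and 2.1 CPM. Rarg averaged 4.6 CPM in satellite glia. The mesoderm genes Tbx18 (233 CPM), Foxc2 (45.7 CPM) and Pax9 (41.2 CPM) led the limb and body-wall list in fibroblasts, and the sensory neuron genes Isl2 (91.8 CPM) and Isl1 (16.04 CPM) in neurons, followed by Foxp1 (5.9 CPM). In satellite glia that list was led by Foxp1 (11.1 CPM), Isl2 (2.6 CPM) and Lmx1b (0.8 CPM). Of the list of head or cranial origin, Otx1 averaged 0.12 CPM in neurons, Dlx5 3.3 CPM and Dlx6 1.9 CPM in fibroblasts, and Dlx5 0.06 CPM and Phox2a 0.05 CPM in satellite glia.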

How the data were processed

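Whole-transcriptome single-cell libraries of rat L4-L6 DRG were analysed from the deposited UMI count matrices of 4 libraries, 1 count per gene and cell barcode. The capture system was BD Rhapsody, per the labels' protocols; no source used here names the aligner, genome build or gene annotation. Strand use in counting is not described, so UMIs of overlapping genes cannot be told apart.

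Cells with at least 200 genes and at most 25% mitochondrial UMIs were kept. The doublet caller failed in 3 libraries, so the 5% of cells with the highest scores were removed from each library, a choice made after seeing the data, as were the thresholds for naming clusters, the tests in neuron sub-clusters and the crossed block. Cells were clustered with scanpy 1.11.5 (2000 variable genes without Hox rows, 30 principal components, 15 neighbours, Leiden resolution 1.0) and named by markers. UMIs were summed per library and class and tested with edgeR 4.0.16 (quasi-likelihood, TMM, filterByExpr, Benjamini-Hochberg over all features) where every library held at least 30 cells. The tests were checked on simulated data. DESeq2 1.42.0, no count filter, other cell filters and resolutions, a replicate block and leaving out each library were alternatives. Intervals are exact binomial ones at 95% and cover counting error only.

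The members and lists were chosen with earlier results of these data known. Members averaging at least 5 CPM in neurons, satellite glia, either Schwann class, fibroblasts or endothelial cells were named, with values per library or, for the lower ones, a range, and for each class the 3 smallest p values. For the other lists the 3 most abundant genes in neurons, satellite glia and fibroblasts were named, and 4 genes that these rules name are not reported here. Of the 15 RNAs of the Hox-locus list, 0 matched a row by symbol. RefSeq tables on GRCr8 gave promoters and neighbouring genes by symbol.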

Additional observations from a re-analysis of the deposited data

How the results depend on the processing

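No Hox member passed between CPIP and Sham in any whole class under any alternative run, except when CPIP replicate 1 was left out (0 to 1 in neurons and in the Cdh19-Scn7a cluster over the 4 libraries left out). Counts of all features called were less stable, and the cause was not tested. DESeq2's Wald test called 8 features in neurons, 7 in satellite glia, 3 in endothelial cells, 1 in macrophages, 1 in the Cdh19-Scn7a cluster and 54 over all cells. DESeq2 size factors called 1 in non-myelinating Schwann cells. Without a count filter there were 1 in neurons, 1 in satellite glia, 53 in non-myelinating and 27 in myelinating Schwann cells, 34 in fibroblasts, 12 in endothelial cells, 110 in smooth muscle cells, 40 in macrophages and 147 in the Cdh19-Scn7a cluster. With doublets kept there were 1 each in neurons, satellite glia and non-myelinating Schwann cells and 8 in macrophages. The strict cell filter gave 2 in neurons and 0 in endothelial cells and macrophages, and resolution 2.0 gave 3 in non-myelinating Schwann cells. Leaving out 1 library, with the lone library of its group assumed to vary like the other group, gave 0 to 797 in neurons, 0 to 394 in satellite glia, 0 to 87 in non-myelinating and 6 to 92 in myelinating Schwann cells, 0 to 46 in fibroblasts, 0 to 363 in endothelial cells, 12 to 237 in smooth muscle cells, 16 to 67 in macrophages, 0 to 494 in the Cdh19-Scn7a cluster and 0 to 536 over all cells.

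Over all tested features, same-numbered libraries did not deviate together (correlation -0.115 in neurons, -0.126 in satellite glia and -0.303 in fibroblasts), so the numbers were not taken as pairs. Some members of HoxA, HoxB, HoxC and HoxD were an exception in neurons and satellite glia, where they split by number as given above. In endothelial cells some of HoxB, HoxC and HoxD did so. The replicate block called 1 feature in neurons, 3 in non-myelinating and 1 in myelinating Schwann cells, 25 in endothelial cells, 44 in smooth muscle cells and 1 in the Cdh19-Scn7a cluster. The crossed replicate block called 1 in neurons, 1 in satellite glia, 9 in non-myelinating and 40 in myelinating Schwann cells, 89 in fibroblasts, 6 in endothelial cells, 4 in macrophages and 1 in the Cdh19-Scn7a cluster.

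In Pvalb-led neurons 2 Hox members and 84 features passed. The strict cell filter, applied within this sub-cluster, left 70 and 113 cells in CPIP and 119 and 75 in Sham. With it 2 Hox members, Hoxc11 and Hoxd1, and 60 features passed. DESeq2's Wald test gave 1 and 42, no count filter 3 and 331, the replicate block 3 and 284, the crossed replicate block 0 and 0, and leaving out 1 library 1 to 3 and 49 to 210.

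The CPIP minus Sham difference in the share of groups 10 to 13 moved under the strict filter to 1.88 points in satellite glia, 0.163 in non-myelinating Schwann cells, 1.04 in endothelial cells and 5.38 in smooth muscle cells. In non-myelinating Schwann cells it was 1.98 at resolution 2.0, 8.14 over groups 9 to 13 and -0.50 over groups 11 to 13, and in endothelial cells -0.16 over groups 11 to 13. The difference in mean paralogue group moved under the strict filter to -0.19 in non-myelinating and 0.51 in myelinating Schwann cells and -0.25 in smooth muscle cells. It was 0.68 without the most abundant member and 0.17 at resolution 2.0 in non-myelinating Schwann cells, and -0.0214 with doublets kept in smooth muscle cells. The summed Hox level under the strict filter was 348 CPM in satellite glia, 256 in non-myelinating and 176 in myelinating Schwann cells, 691 in endothelial cells and 376 over all cells. In endothelial cells it was 732 CPM with doublets kept and 775 CPM after thinning. Fits of the strict filter in myelinating Schwann and smooth muscle cells were not run for lack of cells. Fits of other clusterings in the Cdh19-Scn7a cluster and Pvalb-led neurons were not run either, though some held clusters led by Cdh19 or Pvalb. With 2 pools a group, small differences were not detectable.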
